A study of Sorghum bicolor with 177 samples.

Results

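Class III peroxidases are a large plant family of secreted haem enzymes, and 139 of the 34129 genes in the deposited sorghum table belong to it by the rule used here. A gene was counted as a member when the description of its closest rice gene contained the words "peroxidase precursor". The enzymes use hydrogen peroxide to couple phenolic compounds in the cell wall, among them the monolignols that form lignin, and they can also release reactive oxygen. In roots the family is known for wall stiffening, for lignin in xylem and for the lignified barrier of the endodermis. Each enzyme carries an iron-containing haem group.

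RNA was sequenced from root and leaf of hydroponic greenhouse plants of BTx623, the reference line of Sorghum bicolor. After acclimation in the control solution the seedlings were moved to 1 of 5 solutions that differed only in zinc and iron. The control held 1 µM ZnSO4 and 50 µM NaFeEDTA, the iron chelate that supplied the metal. Iron limitation held 0 µM and iron excess 1 mM NaFeEDTA, both with 1 µM ZnSO4. Zinc limitation held 0 µM and zinc excess 100 µM ZnSO4, both with 50 µM NaFeEDTA. Both tissues were taken at the start (control solution alone) and after 2, 4, 7, 14 and 21 d, and roots also after 1 h. The 177 libraries (94 root, 83 leaf) were deposited as the authors' mean TPM in 57 columns (31 root, 26 leaf), 1 per tissue, time and solution. TPM is transcript abundance scaled for gene length and library total, so levels of different genes can be set side by side. Single libraries were not analysed here, so values below carry no SD, and their read depth is unknown.

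Tests were limma fits on log2(mean TPM + 1) with the sampling time as the replicate and Benjamini-Hochberg adjustment over all genes tested. Differences are on that log2 scale, which understates changes of low genes, and ± gives the standard error of the fit. The p-values therefore speak of the spread over sampling times, not over plants, and 17 root and 3 leaf plants were sampled at more than 1 time. Of the root plants, 15 were sampled at both 1 h and 21 d. They stood in both the early and the late times of the root comparisons below, which the fits did not model. The 4 treatments share their control columns. A TPM value is a share of the RNA, so fewer cells of a type and less RNA per cell cannot be told apart.

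The label was checked against the annotation. The closest Arabidopsis gene of 135 members is described as a peroxidase superfamily or family protein, and the terms haem binding and peroxidase activity are listed for all 139. Sobic.006G204000 and Sobic.007G205600 go against the label, since their closest Arabidopsis genes are APX4 (TL29), a thylakoid lumen protein, and APX6, both from the ascorbate peroxidase class. These 2 genes met the rule and were kept, and they are named wherever they carry a value. The members are spread over all 10 chromosomes, with 22 on chromosome 1, 20 each on chromosomes 2, 3 and 9, and 4 on chromosome 7. A single Arabidopsis peroxidase, AT5G05340, is the closest relative of 28 members, and RCI3 (AT1G05260) of 12. The identifiers place 92 members in 26 groups of near neighbours, 7 of them with 5 or more genes. Such copies can share reads, and the sources used here do not say how shared reads were assigned.

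The family was mainly a root family. Of the 139 genes, 110 reached a mean of 1 TPM over the root columns and 29 over the leaf columns, 26 of these in both tissues. A further 26 stayed under 1 TPM in both, among them 3 listed at 0 in every column. In root 69 members averaged at least 10 TPM and 25 at least 100 TPM, against 9 at 10 TPM in leaf. Just inside the limit in root lay Sobic.002G392300 with a mean of 1.05 TPM, and just outside it Sobic.007G205600 with 0.944 TPM. The summed level of the family was 3960 to 8566 TPM in 30 root columns and 24672 TPM under iron excess at 7 d. In leaf the sum was 320.5 to 771 TPM, and 124 to 514 TPM without the ascorbate peroxidase-like pair.

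**Figure D1:**
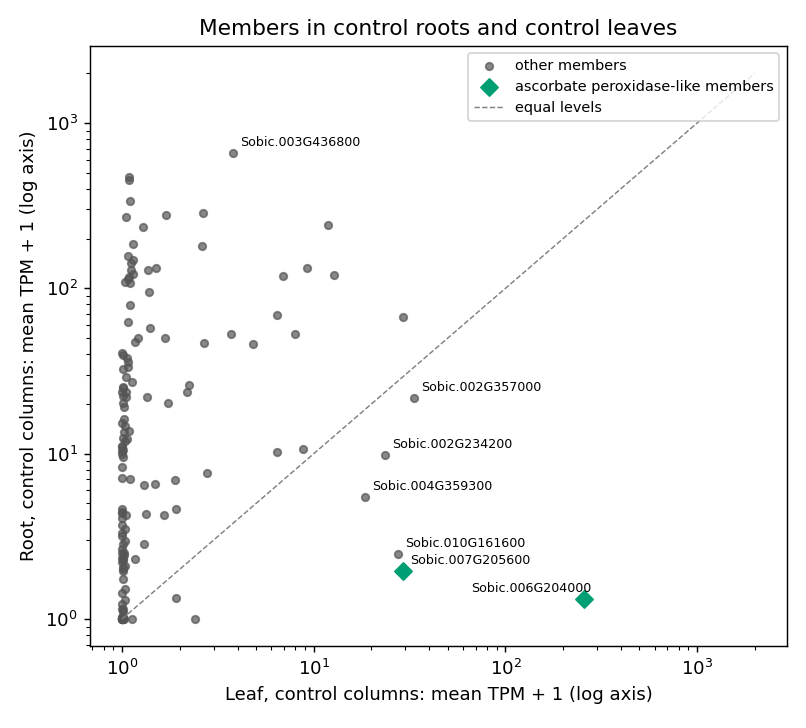
Each point is 1 of the 139 members, plotted by its mean TPM + 1 over the control columns of leaf (x axis, log) and root (y axis, log). Most members lie far above the line of equal levels, and the few to its right include the ascorbate peroxidase-like pair (green) with Sobic.006G204000 farthest right.

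In control plants 102 of the 115 members tested were higher in root and 5 higher in leaf (limma, 6 shared times). Genes entered this test with a mean of at least 1 TPM over the control columns of either tissue. A member could thus enter only through the tissue in which it was then called higher, which limits what these counts show. Of all 21811 genes tested, 65.4 percent were higher and 17.6 percent lower in root. The median root minus leaf difference was 3.34 for members and 1.09 for all genes. After rescaling each column to a common median, 77 members were higher and 8 lower in root, against 7053 and 7260 of all genes. The largest differences belonged to Sobic.001G360500 (8.61 ± 0.23, adjusted p = 1.046e-08), Sobic.001G235800 (8.10 ± 0.27, adjusted p = 3.208e-08) and Sobic.006G277500 (7.88 ± 0.35, adjusted p = 1.426e-07). Sobic.001G444400, Sobic.006G079300, Sobic.003G436800, Sobic.006G277800 and Sobic.003G140700 followed with 7.09 to 7.81. Sobic.006G079300 is closest to AT5G66390 and Sobic.003G140700 to AT4G33420, peroxidases tied in Arabidopsis to lignin and to xylem.

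The 5 members higher in leaf started with the TL29-like Sobic.006G204000 (-7.53 ± 0.20, adjusted p = 9.05e-09) and the APX6-like Sobic.007G205600 (-3.87 ± 0.21). The others were Sobic.010G161600 (-3.27 ± 0.29), Sobic.004G359300 (-1.55 ± 0.41) and Sobic.004G105800 (-1.15 ± 0.24). Sobic.004G105800 averaged 0.0 TPM over the root columns. It passed the filter only through the control leaf columns in which it was then called higher. Sobic.004G359300 is closest to AT5G42180, a peroxidase that Arabidopsis uses for the lignin of the Casparian strip, and it averaged 16.1 TPM over leaf columns and 3.49 TPM over root columns. Among related gene lists, 6 of 7 respiratory burst oxidases, which supply the peroxide precursor superoxide, were higher in root. So were 13 of 15 laccases and 23 of 27 dirigent proteins, partners in lignin formation, while 3 dirigent proteins were higher in leaf. Of 25 other peroxide scavengers (catalases, ascorbate and glutathione peroxidases, peroxiredoxins), 7 were higher in root and 13 in leaf. The tissue labels held in the list of photosystem and light-harvesting genes, of which 68 of 75 were higher in leaf and 0 in root.

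A few members made up much of the root total. The 10 most abundant members of a column took 39.5 to 89.5 percent of the family's summed level in root, with a median of 47.9 percent. By mean over the root columns the order was Sobic.003G436800 (1044 TPM), Sobic.001G360500 (436 TPM), Sobic.007G014200 (361 TPM), Sobic.001G235800 (311 TPM) and Sobic.006G277500 (293 TPM). Sobic.001G444400, Sobic.003G140700, Sobic.006G079300, Sobic.009G032600, Sobic.006G277800, Sobic.010G162000 and Sobic.009G055300 stood between 269 and 177 TPM. The ranges over columns overlapped throughout this order, for example 126 to 772 TPM for Sobic.001G360500 and 71.0 to 788 TPM for Sobic.007G014200. By median the first gene stood behind the next 2, with 348 TPM for Sobic.003G436800 against 424 TPM for Sobic.001G360500 and 365 TPM for Sobic.007G014200.

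Sobic.003G436800, described as a class III peroxidase precursor and closest to AT1G71695, read far higher in 1 column than in the rest. Without that column its mean over 30 root columns was 454 TPM, against 442 TPM for Sobic.001G360500. Under iron excess it read 229 TPM at 1 h, 348 at 2 d, 338 at 4 d, 18734 at 7 d, 380 at 14 d and 389 at 21 d. The control read 233 TPM at 0 h, 233 at 1 h, 1080 at 2 d, 1536 at 4 d, 1025 at 7 d, 274 at 14 d and 189 at 21 d. Under zinc excess the gene read 95.2 TPM at 1 h, 880 TPM at 7 d and 802 TPM at 21 d. At the other times of zinc excess its log2 difference from the control was -2.94 at 2 d, -2.49 at 4 d and 0.56 at 14 d. Under zinc limitation it lay between 106 and 601 TPM. Under iron limitation it read 1267 TPM at 2 d and 128 to 492 TPM at the other times. In the iron excess column at 7 d it was the only member among the 8 genes that stood furthest above their other root columns. For that iron excess column the labels list 2 libraries, whereas the decimals of the mean fit 3. Whether 1 library carried the value of 18734 TPM cannot be read from a mean. No treatment moved Sobic.003G436800 past the threshold in either tissue.

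**Figure D2:**
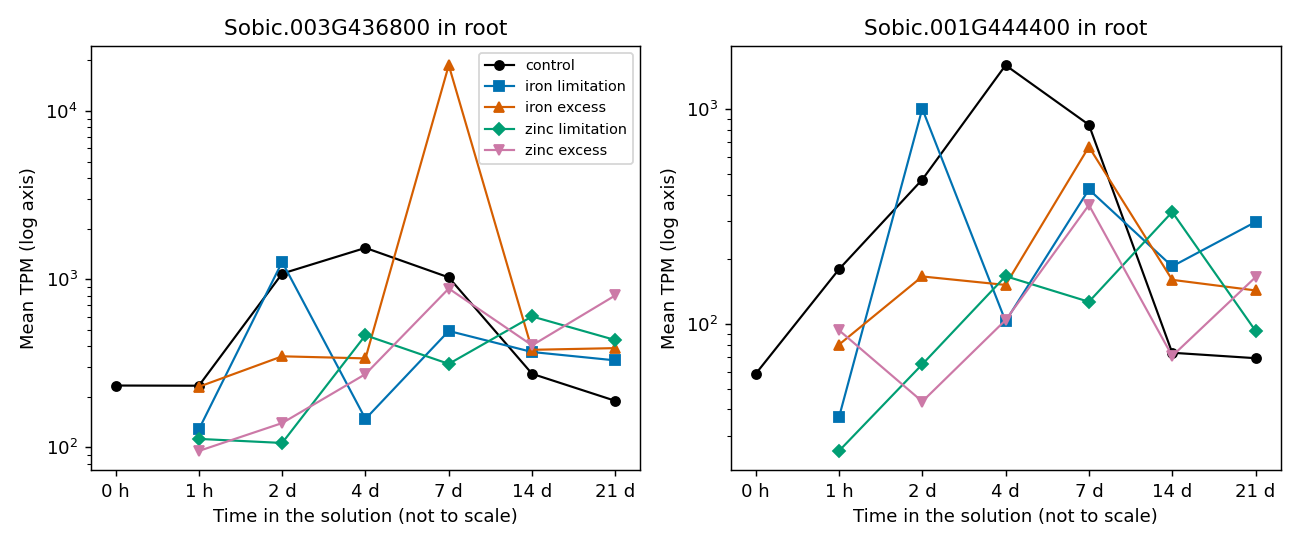
Mean TPM (log axis) of Sobic.003G436800 (left) and Sobic.001G444400 (right) in root against time in the solution, with 1 line per solution. The single value of 18734 TPM under iron excess at 7 d stands above every other point, and both genes are high in control roots at 2 d, 4 d and 7 d.

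Neighbouring copies differed in level. Among the 5 genes of the cluster that holds Sobic.010G161600 and Sobic.010G162000, the second led in root (181 TPM, against 1.58 TPM for the first). In leaf the order was turned, with 25.5 TPM for Sobic.010G161600 and 2.25 TPM for Sobic.010G162000. The 7 genes around Sobic.009G032600 spanned mean root levels from 1.30 to 223 TPM, and the 5 genes around Sobic.006G277500 from 2.68 to 293 TPM. Over the 31 root columns, pairs within a cluster had a median Pearson r of 0.49 (110 pairs), against 0.24 for the other 5885 pairs. These correlations share the columns and their scaling and describe the table only. The cluster around Sobic.010G161600 had a median r of 0.07, and the one around Sobic.002G416900 of -0.04.

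The median SD of a member's level over the 31 columns was 0.82 for 110 members and 0.41 for all 20500 genes tested, on the log2 scale. In leaf it was 0.73 for 29 members and 0.45 for 17067 genes. In control roots at 2 d and 4 d, 67 of 110 members were at least 2-fold lower than the mean of the control at the other 5 times, as were 19.5 percent of all genes. Another 7 members (6.36 percent) were at least 2-fold higher, near the 6.95 percent of all genes. The median difference was -1.22 for members and -0.25 for all genes, and no test was made of it.

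Among the members that were low, Sobic.003G167300, closest to the xylem-related AT4G33420, read 2.83 TPM at 2 d and 5.30 at 4 d, against 42.9 to 65.9 TPM at the other control times. Sobic.002G392000 read 15.6 and 23.2 TPM against 165 to 282 TPM. Sobic.009G186500, an RCI3-like gene, read 16.5 and 29.2 TPM against 122 to 303 TPM. In all 3 genes both values lay under the lowest of the other 5. The same held for 68 of 110 members and for 6865 of 20500 genes. Both values lay above the highest of the other 5 in 6 members and 3153 genes.

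The 7 members that ran the other way, a share near that of all genes, were Sobic.001G277000, Sobic.002G416600, Sobic.001G444400, Sobic.010G245800, Sobic.003G436800, Sobic.003G152100 and Sobic.002G416700. Sobic.003G152100 read 13.6 TPM at 2 d and 45.6 TPM at 4 d, against 5.04 to 19.4 TPM at the other control times, so its values overlapped. Sobic.010G245800 read 367 TPM at 2 d and 173 TPM at 4 d, against 23.5 to 93.3 TPM at the other control times. Sobic.001G444400 read 469 and 1598 TPM, but also 844 TPM at 7 d, and 58.6 to 180 TPM at the remaining times. Sobic.001G277000 read 21.1 and 18.6 TPM against 0.885 to 1.73 TPM. The members named for control roots, low and high, were chosen after their values were seen.

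Other gene groups also stood apart in the same 2 columns. Core histones summed to 5204 and 5814 TPM there, against 10725 to 19749 TPM in the control at other times, with 35 of 47 genes at least 2-fold lower. Ribosomal proteins summed to 55887 and 58633 TPM against 96064 to 159257 TPM, with 143 of 304 at least 2-fold lower. Photosystem and light-harvesting genes summed to 547 and 556 TPM against 290 to 460 TPM, with 12 of 39 at least 2-fold higher and 22 of 90 listed at 0 in both. Dirigent proteins (16 of 27), germin-like proteins (7 of 10) and laccases (8 of 17) were also at least 2-fold lower, and 0 of 7 respiratory burst oxidases were. The part of these groups in the members' values was not tested.

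**Figure D3:**
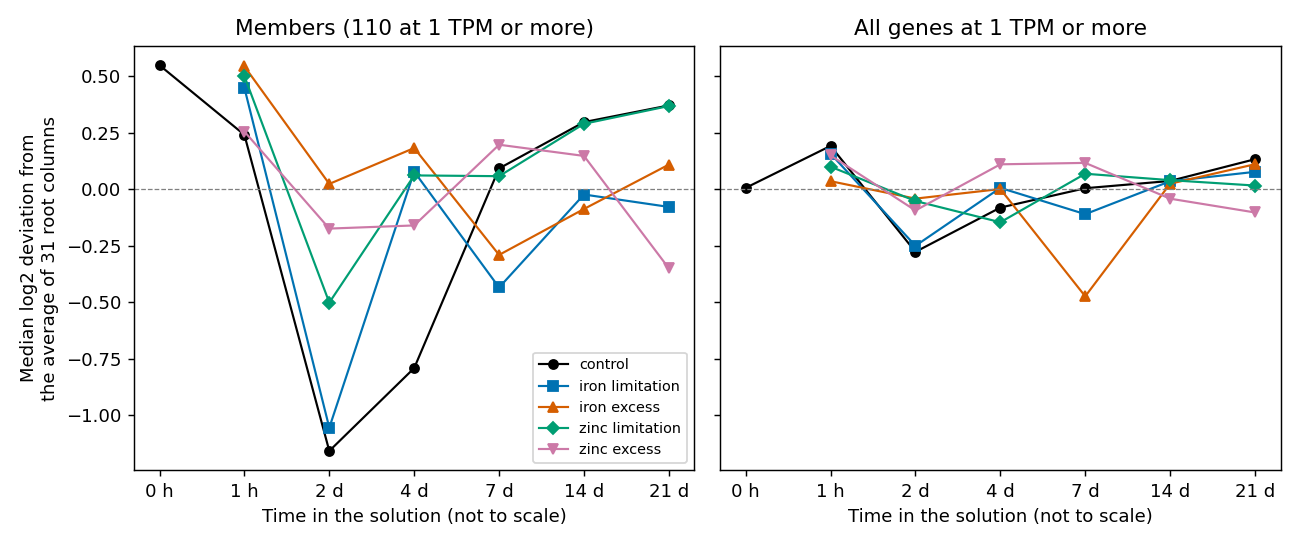
Median log2 deviation of each root column from the average of the 31 root columns, for the 110 members (left) and for all genes tested (right), against time with 1 line per solution. Members lie lowest in the control and under iron limitation at 2 d (-1.16 and -1.05) and in the control at 4 d (-0.79).

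Under iron limitation at 2 d the median deviation of the members from the root average was -1.05 log2 units, beside -1.16 in the control. Zinc limitation stood at -0.50, zinc excess at -0.17 and iron excess at 0.02 at that time. At 4 d the control was at -0.79 and the 4 treatments between -0.16 and 0.18. In each treatment the members at least 2-fold above the control were most numerous at 2 d or 4 d. At 2 d, 47 of 110 members were at least 2-fold higher than the control under iron excess, 43 under zinc excess, 35 under zinc limitation and 9 under iron limitation. Of all 20500 genes 13.04, 16.3, 8.71 and 2.64 percent were. At 4 d these counts were 46, 32, 37 and 37, against 7.95, 8.51, 7.18 and 8.31 percent of all genes. At 7 d they were 5, 10, 0 and 0, against 0.14, 2.71, 1.11 and 1.90 percent, so members and all genes alike were less often higher at 7 d than at 4 d.

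Over all root times, 24.8 percent of the member and time pairs were at least 2-fold from the control under iron excess (7.96 percent of all gene and time pairs). Under zinc excess the shares were 28.0 and 10.6 percent, under zinc limitation 22.7 and 7.54 percent, and under iron limitation 15.0 and 5.5 percent. These counts need the higher mean at 5 TPM or more and have no test. At 21 d of zinc excess 16 members were at least 2-fold higher and 41 lower, against 5.84 and 9.18 percent of all genes. At that time the summed level of the core histones was 4665 TPM under zinc excess, the lowest of all root columns.

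Over all root times, members were called under zinc excess. Of 110 members 2 were higher and 0 lower (limma), beside 1.21 percent of all genes higher and 0.176 percent lower. So few calls do not set the members apart from all genes. Unadjusted p was under 0.05 for 19 members (17.3 percent, against 13.9 percent of all genes), 15 of them higher. Sobic.010G115700, closest to AT1G68850, read 54.4, 32.0, 96.3, 36.3, 45.7 and 51.0 TPM at 1 h, 2 d, 4 d, 7 d, 14 d and 21 d of zinc excess. The control read 23.5, 3.74, 2.18, 18.0, 20.7 and 24.8 TPM at the same times, and 33.5 TPM at 0 h. All 6 treated means lay above the 6 control means of the same times. At every time of zinc excess 6 of 110 members were higher and 1 lower, against 3.4 and 3.93 percent of all genes. Sobic.010G115700 rose by 2.00 ± 0.43 log2 units (adjusted p = 0.01404), with the widest gaps at 2 d and 4 d, where the control was low. Its difference was 1.02 ± 0.43 under zinc limitation and 0.615 ± 0.43 under iron excess, neither called. Under iron limitation it was lower than the control at 4 of 6 times.

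Sobic.003G152000, described as a class III peroxidase precursor and closest to the lignin-related AT5G05340, read 112, 136, 187, 226, 243 and 277 TPM under zinc excess. Its control read 127, 43.7, 75.8, 108, 120 and 182 TPM. Treated means were higher at 5 of 6 times, and the groups overlapped. The gene rose by 0.90 ± 0.20 log2 units (adjusted p = 0.01889). Without 2 d and 4 d the differences were 1.07 (adjusted p = 0.1626) for Sobic.010G115700 and 0.63 (adjusted p = 0.4128) for Sobic.003G152000, and neither was called. Leaving out 2 d alone or 4 d alone also ended both calls, and leaving out 7 d or 14 d ended that of Sobic.003G152000 (adjusted p = 0.06692 and 0.1205).

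**Figure D4:**
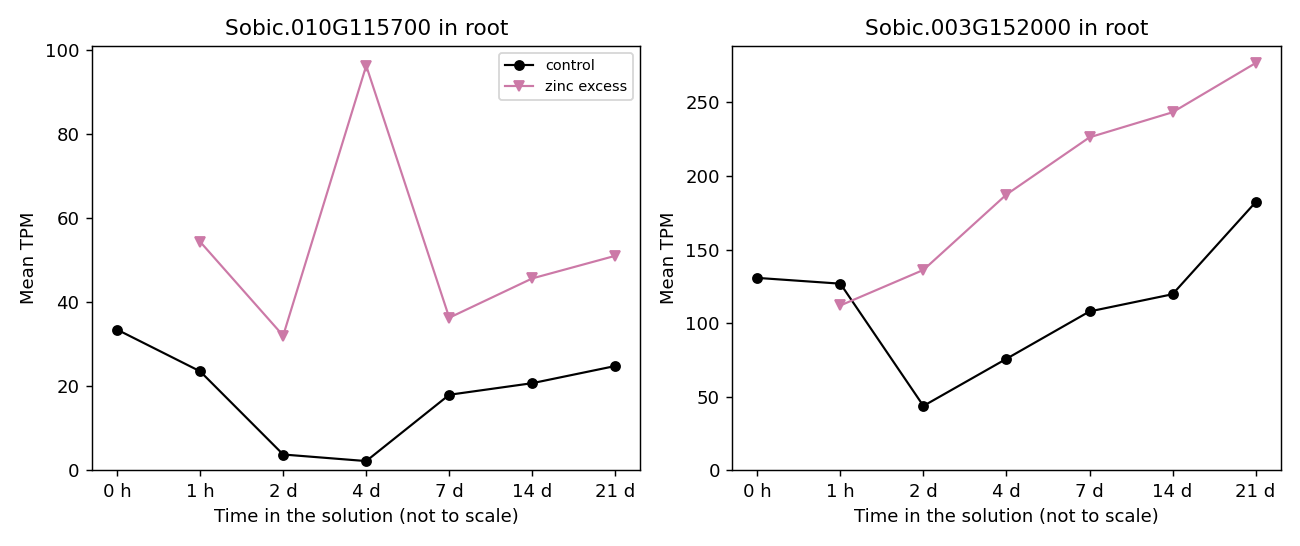
Mean TPM of Sobic.010G115700 (left) and Sobic.003G152000 (right) in control roots (black circles) and zinc excess roots (pink triangles) against time. The treated line of the left gene stays at 32.0 TPM or more and the control line under 25 TPM after 0 h.

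In the other root treatments 0 members passed the threshold (limma). Under iron limitation 0 members and 0 percent of all genes were called, and 0 members had an unadjusted p under 0.05. Under iron excess the share of all genes was also 0 percent, and 6 members had an unadjusted p under 0.05 (5.45 percent, against 7.49 percent of all genes), all higher. Sobic.010G162000 was higher at 6 of 6 times there (0.35 ± 0.27, mean 217 TPM against 172 TPM in the control). At every time of iron excess 2 of 110 members were higher and 0 lower, against 0.33 and 2.07 percent of all genes. Under zinc limitation 0.00976 percent of all genes were called and 9 members had an unadjusted p under 0.05 (8.18 percent, against 6.34 percent of all genes). Sobic.006G243600 was lower at 6 of 6 times (-1.07 ± 0.35, adjusted p = 0.7344, mean 13.8 against 30.8 TPM). Sobic.001G360400 (0.52 ± 0.27) and Sobic.003G152000 (0.42 ± 0.20) were higher at 6 of 6. At every time of zinc limitation 4 of 110 members were higher and 2 lower, against 2.19 and 2.13 percent of all genes. The median member difference was -0.02 under iron limitation, 0.25 under iron excess, 0.26 under zinc limitation and 0.11 under zinc excess, against -0.01, -0.05, 0.02 and 0.02 for all genes.

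The treatment effect in root was also split into early (1 h, 2 d and 4 d) and late (7 d, 14 d and 21 d) times, and the difference itself was tested. For iron excess 0 members were called with a late effect above the early one and 3 with one below it (limma), against 0 percent and 0.395 percent of all genes. Sobic.002G416900, closest to AT5G05340, read 38.6, 10.3 and 22.0 TPM early and 3.10, 6.27 and 2.73 TPM late under iron excess. The control read 14.5, 1.71 and 0.686 TPM early and 16.0, 12.7 and 5.47 TPM late. The gene was thus above the control at 3 of 3 early times and under it at 3 of 3 late times, a late minus early difference of -3.65 ± 0.79 (adjusted p = 0.04821).

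Sobic.008G114700, an RCI3-like gene, read 26.8, 19.7 and 29.2 TPM early and 12.6, 17.9 and 24.6 TPM late, against 18.1, 3.89 and 8.21 TPM and then 24.0, 27.7 and 33.7 TPM in the control (-2.09 ± 0.44, adjusted p = 0.04821). Sobic.003G151900, closest to the lignin-related AT5G66390, read 90.4, 39.5 and 54.3 TPM early and 51.2, 27.4 and 34.2 TPM late. Its control read 52.0, 6.46 and 18.8 TPM early and 64.8, 69.8 and 40.2 TPM late (-2.20 ± 0.48, adjusted p = 0.0489). Both changed sides in the same way as Sobic.002G416900. Without 2 d and 4 d, an alternative added after the data were seen, the 3 differences lay between -1.18 and -2.61 (adjusted p = 0.9998 each). None of the 3 was called without any single time after 1 h, while leaving out 1 h gave 21 called members.

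The late minus early difference was negative for 93 of 110 members under iron excess, with a median of -1.13 against -0.19 for all genes. Called genes of related lists were the LAC2-like laccase Sobic.003G353200 (-2.64 ± 0.57), the dirigent-like Sobic.002G005200 (-2.08 ± 0.44) and the CCR1-like Sobic.002G146000 (-2.03 ± 0.44), whose relative makes monolignol precursors. Each was 1 lower call in its list, of 17, 27 and 38 genes tested. Over the same contrast the median was -1.80 for 47 core histones (1 called lower) and -1.02 for 304 ribosomal proteins (2 called lower), and their part in the members' values was not tested. For zinc excess, zinc limitation and iron limitation 0 members and 0 percent of all genes were called, with 41, 22 and 24 members at an unadjusted p under 0.05 (37.3, 20.0 and 21.8 percent of members, against 19.2, 9.83 and 9.17 percent of all genes). The medians were -0.73, -0.53 and -0.68 for members and -0.16, 0.00 and -0.07 for all genes. Sobic.001G444400 and Sobic.003G152100 were among the members higher by the mean in control roots at 2 d and 4 d. Their late minus early differences were 2.51 ± 1.21 and 2.16 ± 0.87 under iron limitation. Under zinc limitation these were 2.90 ± 1.21 and 2.46 ± 0.87, not called either.

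In leaf the members were led by the TL29-like Sobic.006G204000, at 73.6 to 422 TPM over the 26 columns with a median of 227 TPM. Sobic.002G357000, closest to AT5G05340, followed at 11.9 to 89.2 TPM, and the APX6-like Sobic.007G205600 at 9.43 to 65.7 TPM. Sobic.010G161600, Sobic.009G113700, Sobic.002G234200, Sobic.004G359300 and Sobic.009G055100 averaged 25.5, 22.6, 18.9, 16.1 and 13.3 TPM. The ranges of neighbours in this order overlapped, so the order rests on means alone.

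Over all leaf times, members were called under iron limitation. Of 29 members 1 was higher and 1 lower (limma), beside 6.77 percent of all genes higher and 1.87 percent lower. Calls this few do not set the members apart from all genes. Sobic.002G234200, closest to AT2G22420, whose product acts in lignified tissue of Arabidopsis, read 1.24, 1.02, 0.0763, 0.280 and 0.233 TPM at 2 d, 4 d, 7 d, 14 d and 21 d. The control read 11.4, 9.44, 0.969, 46.7 and 58.0 TPM. The treated mean was lower at 5 of 5 times, and the groups overlapped only through the low control at 7 d. At every time of iron limitation 3 of 29 members were higher and 3 lower, against 13.83 and 4.45 percent of all genes. Sobic.002G234200 fell by 3.30 on the log2 scale (SE 0.74, adjusted p = 0.02678). In root the same gene read 5.63 to 9.95 TPM under iron limitation and 6.02 to 14.6 TPM in the control after 0 h. The root minus leaf difference of the treatment effect was 3.10 ± 0.64 and missed the threshold (adjusted p = 0.05447).

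The member called higher was Sobic.001G444700, closest to AT5G06730, which was listed at 0 in all 6 control leaf columns. Under iron limitation it was listed at 0 at 2 d and read 0.423 TPM at 4 d, 4.59 at 7 d, 9.16 at 14 d and 23.2 at 21 d (adjusted p = 0.02678). In the other leaf columns it stayed at or under 0.242 TPM, and in root it reached 5.05 TPM under zinc excess at 21 d. It passed the filter of a mean of 1 TPM over the leaf columns only through the iron-limited columns in which it was then called. No fold is given against a group listed at 0. Leaving out 7 d, 14 d or 21 d ended the calls of both genes, with adjusted p from 0.1211 to 0.196 for Sobic.002G234200 and from 0.1256 to 0.1969 for Sobic.001G444700.

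**Figure D5:**
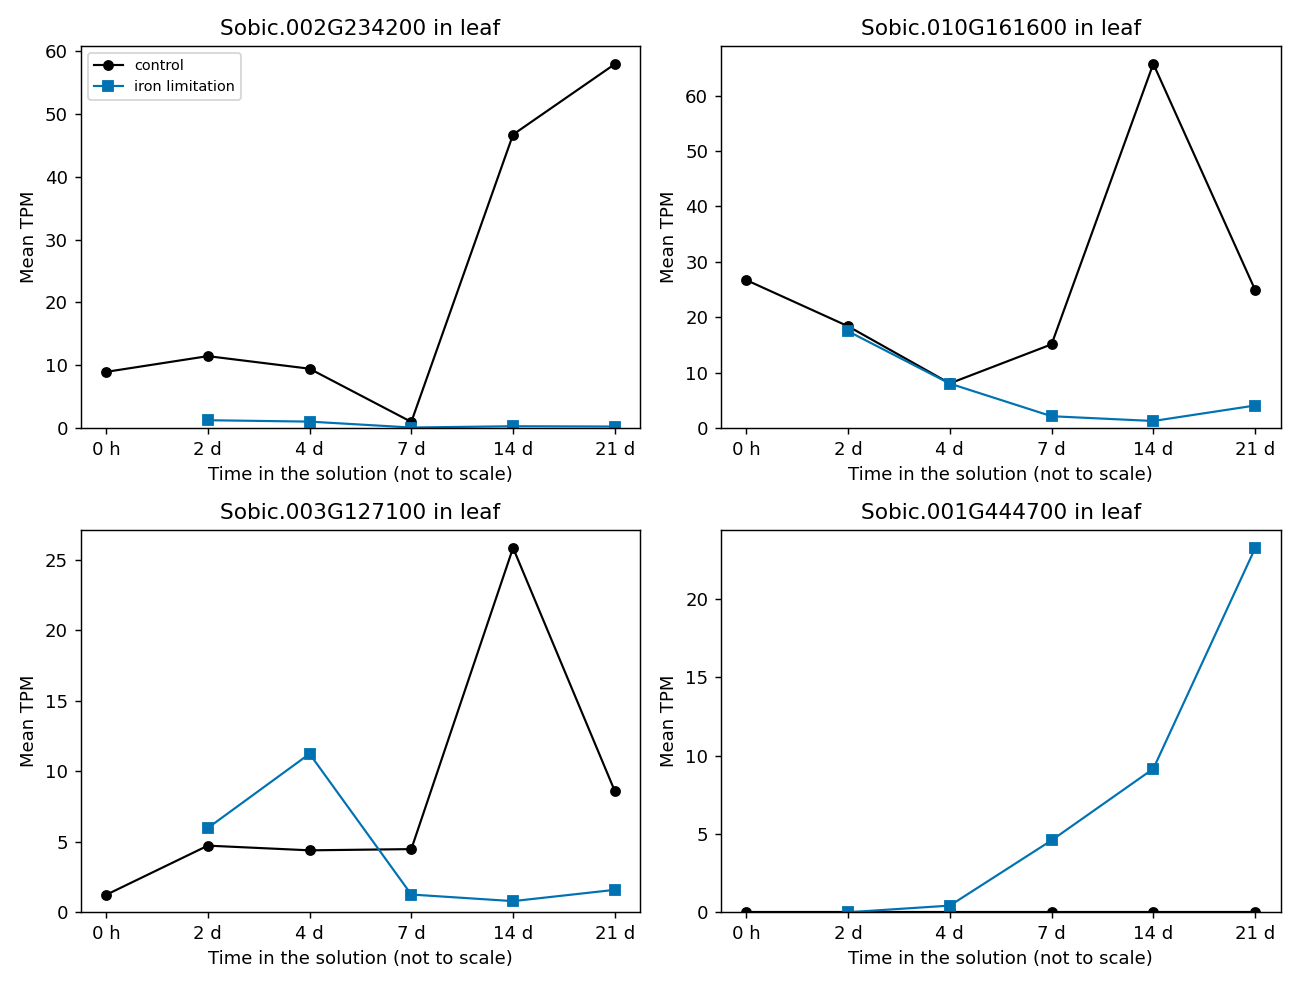
Mean TPM of 4 members in control leaves (black circles) and iron-limited leaves (blue squares) against time. Sobic.002G234200 is low throughout iron limitation, Sobic.010G161600 is under the control from 7 d, Sobic.003G127100 is above it at 2 d and 4 d and under it from 7 d, and Sobic.001G444700 reaches 23.2 TPM while the control is listed at 0.

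The late effect of iron limitation (7 d, 14 d and 21 d) differed from the early one (2 d and 4 d) for 1 member upward and 2 downward (limma), against 2.96 and 0.545 percent of all genes. The higher one was Sobic.001G444700 (adjusted p = 0.004907), which passed the filter only through the iron-limited columns. Sobic.010G161600, closest to AT5G05340, read 17.5 and 8.01 TPM early, beside 18.4 and 8.05 TPM in the control. Late it read 2.12, 1.26 and 4.06 TPM against 15.1, 65.7 and 24.9 TPM, so the groups were apart at the late times (-3.17 ± 0.79, adjusted p = 0.03979). Sobic.003G127100, closest to AT2G39040, read 5.97 and 11.2 TPM early against 4.72 and 4.39 TPM. Late it read 1.26, 0.788 and 1.59 TPM against 4.48, 25.8 and 8.59 TPM (-3.09 ± 0.74, adjusted p = 0.03388). None of the 3 was called with the late times starting at 14 d, nor without 2 d or without 4 d. Without 14 d, Sobic.001G444700 alone was called, and without 7 d Sobic.010G161600 was not (adjusted p = 0.07154).

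Related lists moved in the iron-limited leaf in both directions. The list of 24 other peroxide scavengers tested had 3 higher and 4 lower genes (limma). The CAT2-like Sobic.010G274500 rose by 0.78 ± 0.21, and the CAT1-like catalase Sobic.004G011566 fell by 3.63 (SE 0.86). Sobic.001G410200, like the cytosolic ascorbate peroxidase APX1 of Arabidopsis, fell by 1.57 (SE 0.47). Of the ascorbate peroxidase-like members, Sobic.006G204000 lay at -0.22 ± 0.25 and Sobic.007G205600 at 0.44 ± 0.34, neither called. Of 15 secondary wall genes tested 3 were higher, of 31 monolignol enzymes 1 was higher, and 0 of 11 dirigent proteins and 0 of 4 respiratory burst oxidases were called (3 and 2 at an unadjusted p under 0.05). Photosystem and light-harvesting genes summed to 116622 to 214457 TPM in iron-limited leaves at 7 d, 14 d and 21 d, and to 212782 to 384665 TPM in the control, with 15 and 12 of 90 listed at 0 throughout. Of 72 tested, 1 was higher and 12 lower. Their part in the members' values was not tested.

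In the remaining leaf treatments 0 members were called (limma), and 0, 0 and 0.0293 percent of all genes under iron excess, zinc limitation and zinc excess. The members at an unadjusted p under 0.05 were 0, 1 and 4, against 3.04, 1.12 and 12.1 percent of all genes. Under zinc excess Sobic.009G113700 was lower at 5 of 5 times (-0.70 ± 0.21, adjusted p = 0.4021, mean 16.6 against 26.2 TPM). Sobic.010G245800 was higher at 5 of 5 (0.49 ± 0.13, adjusted p = 0.3297, mean 9.25 against 6.19 TPM). At every time of zinc excess 1 of 29 members was higher and 1 lower, against 8.81 and 0.97 percent of all genes. Under iron excess Sobic.004G105200 was lower at 5 of 5 times by a small margin (-0.22 ± 0.24). There 0 of 29 members were higher and 2 lower at every time, against 10.5 and 2.03 percent of all genes. Late minus early tests called 0 members and 0 percent of all genes for each of these treatments, with 0, 1 and 1 members at an unadjusted p under 0.05, against 1.14, 0.715 and 2.37 percent of all genes.

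At single leaf times, 19.3 percent of member and time pairs were at least 2-fold from the control under iron limitation, against 13.5 percent of all gene and time pairs. The shares were 8.28 and 2.9 percent under iron excess, 13.8 and 4.12 percent under zinc limitation, and 13.8 and 7.08 percent under zinc excess. These shares rest on 145 pairs of 29 members and have no test. The filter used the mean over all leaf columns, so a member high in 1 treatment could enter through it and then be counted there. For example, Sobic.003G140700, Sobic.009G186500 and Sobic.010G162000 averaged 6.76, 5.66 and 7.59 TPM in zinc-limited leaves. Their control means at the same times were 0.797, 0.431 and 1.29 TPM. The zinc-limited averages rested mainly on 1 time each. The log2 difference was 4.51 and 4.84 at 14 d for the first 2 genes, and 4.73 at 21 d for the third. These genes lay under the control at 3, 2 and 2 of the 5 times.

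Zinc-limited leaves at 14 d stood apart in the members that are otherwise root genes. In that column 57 members reached 1 TPM, against a median of 23 over the leaf columns. A set of 24 members with a root median of at least 50 TPM and a leaf median of at most 0.5 percent of it was formed after the values were seen. The limit uses these same leaf columns, so low levels in most of them were set by the choice. The median level of the 24 members in this column was 3.70 percent of the root median, and at most 0.474 percent in the other 25 leaf columns. For 20 of the 24 this column held the highest leaf value. Sobic.001G360500 read 17.7 TPM there, Sobic.003G140700 33.0 TPM and Sobic.009G186500 27.7 TPM. Another 270 genes that meet the same limits but are no members stood at a median of 1.41 percent of root, and at most 0.263 percent in the other leaf columns. Both of these maxima were in control leaves at 4 d, the control of every 4 d leaf comparison. There 7 of the 24 members and 71 of the 270 other genes reached 1 TPM, against 21 and 172 in zinc-limited leaves at 14 d. The part of the 270 genes in the members' values was not tested.

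At 21 d of zinc limitation other members were high in leaf. Sobic.010G161600 read 118 TPM, against 24.9 TPM in the control, and Sobic.002G234200 read 105 TPM against 58.0 TPM. Sobic.003G436800 read 26.4 TPM there against 1.55 TPM. The 24 root genes had a median of 0 percent of root in that column. At 14 d the same 3 members read 30.6, 2.01 and 3.94 TPM, against 65.7, 46.7 and 4.57 TPM in the control, so zinc-limited leaves were not on 1 side of the control.

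Age was compared over the mean of the 5 solutions at each time, late against early. In root 0 members and 0 percent of all genes were called (limma), and 13 members (11.8 percent, against 4.10 percent of all genes) had an unadjusted p under 0.05, all of them higher late. Sobic.006G277500, described as an anionic peroxidase precursor, read 62.6 to 121 TPM at 1 h, 18.7 to 196 TPM at 2 d, 72.4 to 279 TPM at 4 d, 294 to 678 TPM at 7 d, 206 to 488 TPM at 14 d and 540 to 678 TPM at 21 d, with overlap of the 4 d and 14 d values (2.07 ± 0.31, adjusted p = 0.9999). In leaf 0 members and 0 percent of all genes were called, and 3 members had an unadjusted p under 0.05, against 2.78 percent of all genes. Among them Sobic.010G161600 had the largest difference (1.07 ± 0.40, adjusted p = 0.8616).

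The treatment effects in root and leaf were set against each other for 26 members, and 0 differed (limma). Of all 15522 genes 0.103 percent differed for iron limitation, 0 percent for iron excess, 0 percent for zinc limitation and 0.251 percent for zinc excess. The members at an unadjusted p under 0.05 were 2, 0, 0 and 2, against 16.2, 7.35, 2.36 and 14.2 percent of all genes. A p above the threshold does not show that the effects were alike. For zinc excess the differences of Sobic.010G245800 (-0.92 ± 0.37) and Sobic.004G359300 (-0.90 ± 0.37) were the 2 with an unadjusted p under 0.05.

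Of the related lists under zinc excess in root, 1 of 11 amine oxidases was lower (Sobic.006G034400, -0.80 ± 0.18) and 1 of 27 dirigent proteins higher (Sobic.005G101500, 2.33 ± 0.54). The 7 respiratory burst oxidases, 10 germin-like proteins, 17 laccases, 38 monolignol enzymes and 22 other peroxide scavengers tested held 0 calls, with 0, 6, 2, 10 and 2 genes at an unadjusted p under 0.05. Photosystem and light-harvesting genes summed to 213 to 354 TPM in zinc excess roots and 290 to 556 TPM in control roots after 0 h, with 5 of 39 lower, and their part was not tested.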

How the data were processed

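The deposited table holds the authors' mean TPM per tissue, time and solution, and per the submitters' processing notes DRAGEN was used. No version, build or annotation is named in the sources used here. In 8 deposited columns the authors' values were recorded as signal, since repeated rows lift their sums, but they are the same mean TPM. The 34924 rows hold 34129 genes, and 795 identical repeats were dropped. Read depth is unknown. Of the means, 51 rest on 3 libraries, 2 on 6, 1 on 5, 1 on 4 and 2 (14 d root, zinc excess and zinc limitation) on 2, read from the decimals. This differs from the labels in 3 root means (zinc excess at 2 d and 7 d, iron excess at 7 d).

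Genes with a mean of 1 TPM over a tissue's columns (20500 in root, 17067 in leaf) were fitted on log2(mean TPM + 1) with limma 3.58.1 (R 4.3.3, trend on). The model added time and treatment, and the threshold was a Benjamini-Hochberg adjusted p of 0.05 over all genes tested. Further fits tested late minus early, root minus leaf over 5 shared times (15522 genes), and root against leaf in 6 control times (21811 genes). The replicate is the sampling time, and the fit was tested on simulated data. Named members are the 12 most abundant in root and 8 in leaf, and the called members. Where none was called, up to 4 with 1 sign at every time and 5 TPM in the higher group were eligible. Related gene lists were taken from words in the deposited descriptions, and a Casparian strip list, which matched only 1 unrelated gene, was dropped. Members and lists were chosen with earlier results of these data known. Alternatives changed the pseudocount, filter, scaling, trend, columns and times. Tables and figures were made with Python 3.11.15, numpy 2.4.6, pandas 2.3.3 and matplotlib 3.10.9.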

Additional observations from a re-analysis of the deposited data

Results flagged for a closer look

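A set of 6 late minus early differences stood out because the treatment effect itself differed between early and late times (limma, tested as a difference). Under iron excess in root they were those of Sobic.008G114700 (-2.09), Sobic.002G416900 (-3.65) and Sobic.003G151900 (-2.20), each above the control at 3 of 3 early times and under it at 3 of 3 late times. Under iron limitation in leaf they were those of Sobic.001G444700 (3.22), Sobic.003G127100 (-3.09) and Sobic.010G161600 (-3.17). The value of Sobic.001G444700 is a difference of log2(mean TPM + 1) against a control listed at 0 and is no bound on a fold change. That gene passed the filter on mean TPM only through the iron-limited leaf columns.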

How the results depend on the processing

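No paired analysis was possible because the deposited columns are means without replicate numbers. Called members are counted below, in log2 fits with limma. Under zinc excess in root the count of 2 became 0 with treatment and control columns only and 0 without 2 d and 4 d. For the late minus early effect of iron excess in root the count of 3 became 0 with a pseudocount of 0.1, without the filter, after rescaling, without the 8 dominant genes, with the trend off, with late times from 14 d, and without 2 d and 4 d (added after the data were seen). It became 30 with treatment and control columns only. Under iron limitation in leaf the count of 2 became 0 without the filter and with treatment and control columns only. Its late minus early count of 3 became 1 under each of these and 0 with late times from 14 d. The root minus leaf count of iron limitation went from 0 to 1 with a pseudocount of 0.1.

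Leaving out 1 time at a time gave 0 to 3 called members for zinc excess in root, 0 to 21 for iron excess late minus early in root (21 without 1 h), and 0 to 3 for zinc excess late minus early in root (3 without 1 h). The range was 0 to 3 for iron limitation in leaf (0 without 7 d, 14 d or 21 d) and 0 to 3 for its late minus early effect. It was 0 to 1 for leaf age (1 without 7 d), 0 to 1 for iron limitation root minus leaf (1 without 2 d or 4 d) and 100 to 108 for root against leaf. The other comparisons gave 0 each time. Of the values of named members under alternatives, 174 kept direction and side of the threshold, 72 missed it in the same direction and 0 reversed. The causes were not tested. Rescaling moved the median of all genes in root against leaf from 1.09 to 0.01. Means of 2 to 6 libraries with unknown depth limit what small differences can show.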
